A study of Rattus norvegicus with 24 samples.

Results

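The Slc25 genes encode the mitochondrial carrier family. Members were taken by symbol, as every gene whose name is Slc25a followed by a number and which had a probe set naming that gene alone. Of 13438 genes measured on the array, 37 met this rule, and for each the probe set of highest average over the 24 arrays was used. The family list drawn up for this report holds 48 genes with such names. The other 11 were not analysed here.

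Liver RNA came from 24 male Sprague Dawley rats, 8 weeks old, 1 rat per array. They formed 4 groups of 6: ANIT (alpha-naphthylisothiocyanate, a toxicant of bile duct epithelium and hepatocytes) at 50 mg/kg in corn oil, or corn oil alone as vehicle, each given once by gavage and followed by necropsy at 24 h or at 120 h. The labels call 24 h the peak of injury and 120 h its resolution. Rats of all 4 groups were fasted for about 18 h before necropsy and received BrdU, a label of DNA synthesis, at 100 mg/kg about 2 h before it. In whole liver, fewer cells of a type and less RNA per cell cannot be told apart. Values are log2 expression values, so a difference of 1 is a doubling. A change was called at an adjusted p under 0.05 in limma, with Benjamini-Hochberg adjustment over all 13438 genes. Levels of different probe sets are not compared with each other, because probes differ in brightness.

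Mitochondrial carriers are small proteins that exchange metabolites, nucleotides and cofactors between the cytosol and the matrix, nearly all across the inner membrane. In the liver they join the pathways that are split between both compartments: citrate leaves the matrix for fatty acid synthesis, acylcarnitines enter it for oxidation, and ornithine and aspartate cross it for the urea cycle. Others bring in phosphate and ADP for ATP synthesis, iron and glycine for haem, or NAD and coenzyme A. Each carrier is made in the cytosol and inserted by the import machinery of both membranes.

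The proximal promoters of 3 carriers are shown because the results turn on these genes: Slc25a29, with the largest rise at 24 h, Slc25a1, whose response differed between the times, and Slc25a25, which fell at both. Each run is the 250 bases before the start of the gene, 5′ to 3′ on the gene's strand, from RefSeq on GRCr8. Slc25a29 lies on the minus strand, with the window at chr6:133517198-133517447. Slc25a1 lies on the plus strand, at chr11:96559804-96560053. Slc25a25 lies on the minus strand, at chr3:36116582-36116831. Capitals mark matches, on either strand, to CCAAT (the CCAAT box, ATTGG on the other strand), GGGCGG (the GC box, CCGCCC on the other strand) and TGACGTCA (the full cAMP response element, the same on both strands).
Slc25a29: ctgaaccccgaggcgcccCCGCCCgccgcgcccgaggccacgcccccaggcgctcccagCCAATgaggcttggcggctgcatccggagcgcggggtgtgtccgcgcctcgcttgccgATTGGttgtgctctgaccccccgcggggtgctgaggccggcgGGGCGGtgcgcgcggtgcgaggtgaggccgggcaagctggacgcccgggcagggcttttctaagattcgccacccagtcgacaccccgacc
Slc25a1: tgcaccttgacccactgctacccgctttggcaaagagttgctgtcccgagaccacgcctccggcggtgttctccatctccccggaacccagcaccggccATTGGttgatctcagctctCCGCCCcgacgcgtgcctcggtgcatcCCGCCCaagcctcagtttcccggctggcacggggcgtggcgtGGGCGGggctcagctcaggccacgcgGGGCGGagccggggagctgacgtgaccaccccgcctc
Slc25a25: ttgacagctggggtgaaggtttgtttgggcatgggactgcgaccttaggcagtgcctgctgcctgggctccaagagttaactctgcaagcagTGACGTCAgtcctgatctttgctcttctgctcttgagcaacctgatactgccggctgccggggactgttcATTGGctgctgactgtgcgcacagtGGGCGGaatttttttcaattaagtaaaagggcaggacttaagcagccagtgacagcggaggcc
The Slc25a29 window held 2 CCAAT boxes and 2 GC boxes, and the Slc25a1 window held 1 CCAAT box and 4 GC boxes. The Slc25a25 window held 1 of each and 1 full cAMP response element, which ended 151 bases before the start. Windows were found for 32 of the 37 carriers, and these and the motifs were chosen after the values had been seen. CCAAT was present in 17 of the 32 (53.1%) and in 34% of 33469 rat promoter windows of the same length. GGGCGG was present in 20 (62.5%) against 30.5%. The full cAMP response element was present in 2, Slc25a25 and Slc25a33, against 1.59% of all windows. A further 2 motifs, CACGTG (the E-box) and TATAAA (the TATA box), were in 3 and 1 of the 32, against 5.59% and 12.9%. A match of letters is a description of the window and does not show that a factor binds there.

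The arrays did not share 1 spread of values, with SDs from 1.84 to 2.09 over all probe sets. The 6 narrowest, called narrow arrays here, were vehicle replicates 3 to 5 of 24 h and ANIT replicates 4 to 6 of 120 h, so they lay in opposite arms of the comparisons. The control level, the mean of 9 hybridisation controls, was 11.16 ± 0.38 (SD, n = 6) for vehicle and 10.81 ± 0.25 for ANIT at 24 h (two-sided exact permutation p = 0.091). The beta-actin ratio, the log2 ratio of its 3′ to its 5′ probes and a sign of RNA quality, was 2.84 ± 0.05 for vehicle and 3.12 ± 0.07 for ANIT at 24 h, with every ANIT rat above every vehicle rat (two-sided exact permutation p = 0.0022, the smallest possible). Ratio and treatment thus split the 24 h arrays in the same way. A 24 h call lost with the ratio as a covariate therefore cannot be assigned to the one or the other. Results were recomputed with each of these values as a covariate and without the narrow arrays. The part of these array properties in the results was not tested beyond those values.

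At 24 h, 9 of the 37 carriers (24.3%) differed from vehicle, beside a background of 18.2% of all genes. Of these, 5 rose (background 12.9%) and 4 fell (background 5.31%). The carriers that rose were Slc25a29, Slc25a28, Slc25a1, Slc25a38 and Slc25a3, which carry basic amino acids, iron, citrate, glycine and phosphate. Those that fell were Slc25a30, Slc25a25, Slc25a51 and Slc25a13, an uncoupling protein relative and the carriers of ATP-Mg and phosphate, of NAD, and of aspartate and glutamate. The median change over the 37 was 0.02, and over all genes 0.00 to 2 decimals. Among the 28 that were not called, changes ran from -0.39 to 0.33. The arrays of the groups did not overlap for 4 carriers, Slc25a1, Slc25a28, Slc25a29 and Slc25a30, and for 7.87% of all genes. With the beta-actin ratio as a covariate 4 carriers were called, 1 higher and 3 lower, and without the narrow arrays 5, 3 higher and 2 lower. Quantile normalization gave 5 higher and 8 lower, and setting all arrays to a common median gave 5 and 2. Calls over all 13438 genes moved too, from 2451 as reported to 907 with the beta-actin ratio and 1554 without the narrow arrays. They were 2872 with quantile normalization and 2308 with a common median.

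**Figure D1:**
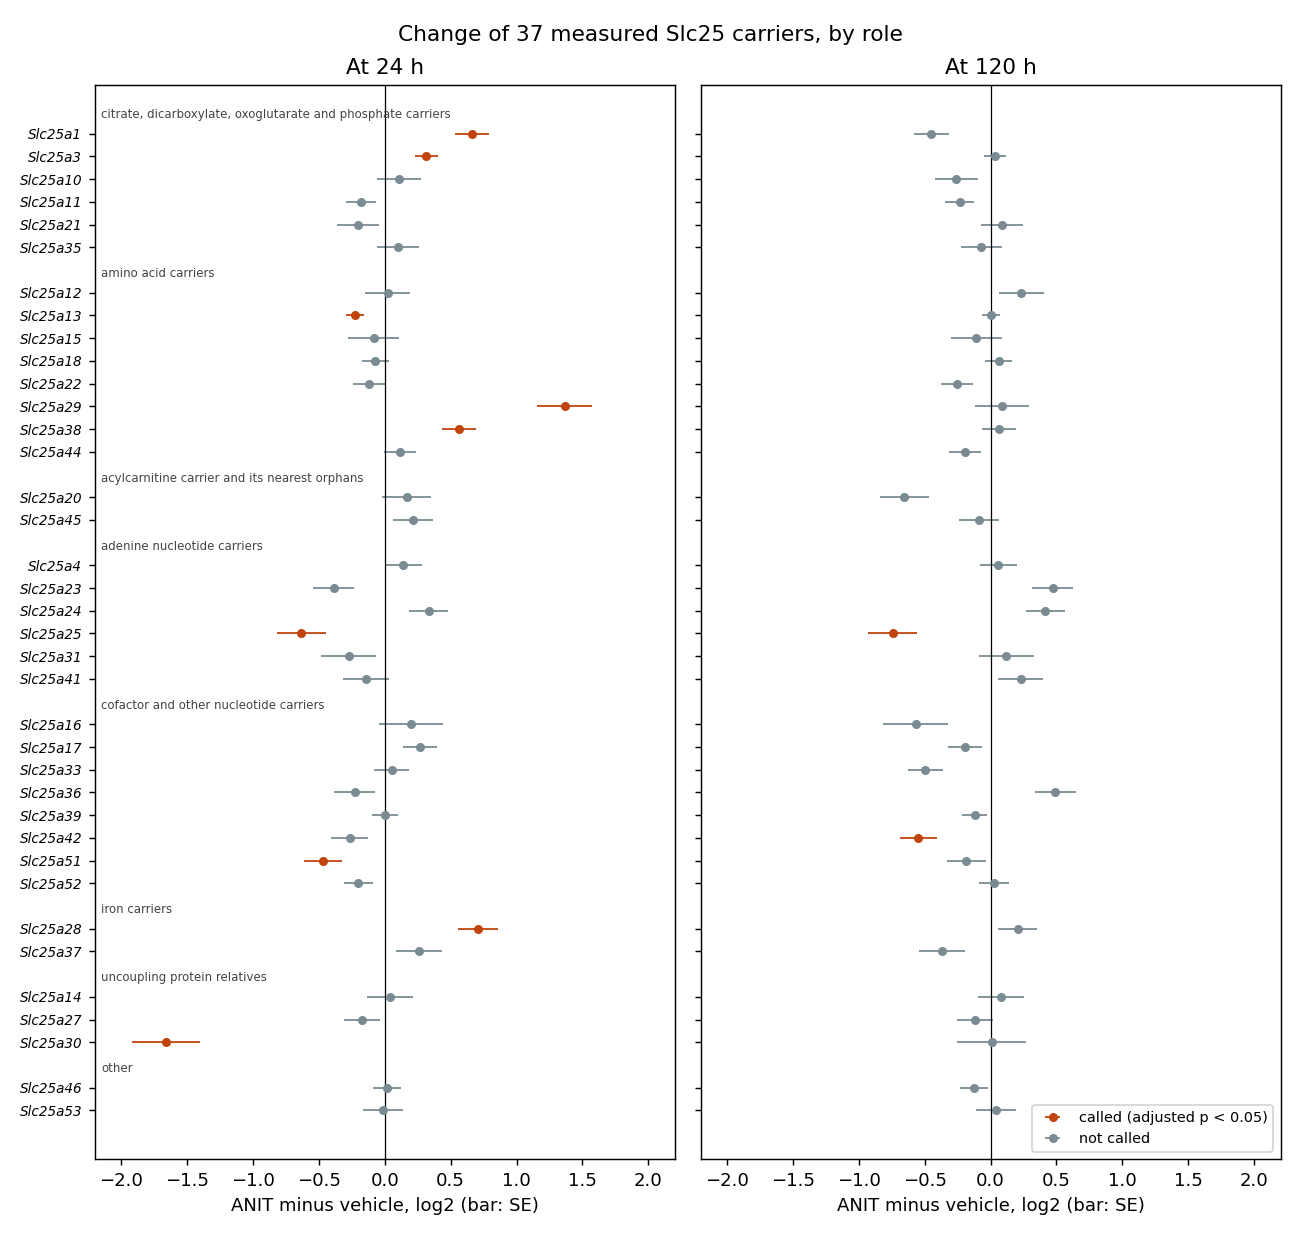
Change of each of the 37 measured carriers (ANIT minus vehicle, log2, point with SE, n = 6 and 6) at 24 h (left) and 120 h (right), grouped by role, with called changes in red. At 24 h, 9 points are called, from -1.66 for Slc25a30 to 1.37 for Slc25a29; at 120 h the 2 called points, Slc25a25 and Slc25a42, are both below 0.

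Among the carriers of citrate, dicarboxylates, oxoglutarate and phosphate, 2 of 6 rose at 24 h and none of the 6 was called at 120 h in limma (2 had an unadjusted p under 0.05). Slc25a1, the citrate carrier that exports citrate from the matrix for fatty acid and sterol synthesis, lay at 7.26, 7.53 and 7.77 in vehicle rats at 24 h (lowest, median and highest of 6) and at 7.85, 8.18 and 8.39 in ANIT rats. Every ANIT rat was above every vehicle rat. The rise was 0.66 ± 0.13 (log2 ± SE, 1.58-fold, adjusted p = 0.00072). At 120 h the values lay the other way round: vehicle rats lay at 7.32, 7.62 and 7.84 and ANIT rats at 6.64, 7.13 and 7.45. All 6 ANIT rats were below the vehicle median, with a value of -0.45 ± 0.13 that was not called (adjusted p = 0.081), though it was in 3 of 10 alternatives. The effect of ANIT at 120 h minus that at 24 h was -1.11 ± 0.19 (adjusted p = 0.00026). Both calls, at 24 h and for the difference, were lost with the beta-actin ratio as a covariate (0.45 at 24 h, adjusted p = 0.19, and adjusted p = 0.069 for the difference). In ANIT rats of 120 h, the 3 narrow arrays had the 3 lowest Slc25a1 values, 6.64 to 7.04 against 7.21 to 7.45 on the others.

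Slc25a3, the phosphate carrier that supplies ATP synthase, rose by a smaller amount at 24 h. Vehicle rats lay at 9.80, 9.99 and 10.28 and ANIT rats at 10.21, 10.36 and 10.47. The groups overlapped, with 4 of 6 ANIT rats above all vehicle rats. The rise was 0.32 ± 0.09 (1.25-fold, adjusted p = 0.010), and at 120 h the difference was 0.03 ± 0.09. The call at 24 h was lost with the beta-actin ratio as a covariate, also together with the control level, and without the narrow arrays (value down to 0.18, adjusted p up to 0.35). The other members of this group were not called at either time. Slc25a10, the dicarboxylate carrier, gave 0.11 ± 0.16 at 24 h and -0.26 ± 0.16 at 120 h, and Slc25a11, the oxoglutarate carrier of the malate-aspartate shuttle, gave -0.18 ± 0.11 and -0.23 ± 0.11. Slc25a21, a carrier of oxodicarboxylates from lysine breakdown, gave -0.20 ± 0.16 and 0.09 ± 0.16, and the less studied Slc25a35 gave 0.10 ± 0.16 and -0.07 ± 0.16. The probe sets of Slc25a21 and Slc25a35 were dim.

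Of the 8 amino acid carriers, 2 rose and 1 fell at 24 h, and none was called at 120 h in limma (1 had an unadjusted p under 0.05). Slc25a29, a carrier of basic amino acids such as arginine and lysine, had the largest rise of the family. Vehicle rats at 24 h lay at 6.28, 6.42 and 6.58 while ANIT rats spread over 6.97, 7.81 and 8.61. All 6 ANIT rats were above all vehicle rats, and they varied more among themselves than any other group did for this gene. The rise was 1.37 ± 0.21 (2.58-fold, adjusted p = 3.0e-05). At 120 h vehicle rats lay at 6.10, 6.48 and 6.66 and ANIT rats at 6.33, 6.42 and 6.88, a difference of 0.09 ± 0.21. The effects at the 2 times differed by -1.28 ± 0.29 (120 h minus 24 h, adjusted p = 0.0043). This difference was not called with the beta-actin ratio as a covariate or without the narrow arrays (adjusted p up to 0.059), whereas the rise at 24 h was called under every alternative tried, from 1.21 to 1.48.

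Slc25a38, the carrier that brings glycine into the matrix for the first step of haem synthesis, rose at 24 h. Vehicle rats lay at 6.76, 6.94 and 7.40 and ANIT rats at 7.23, 7.59 and 7.77, and 5 of 6 ANIT rats exceeded all vehicle rats. The rise was 0.56 ± 0.13 (1.48-fold, adjusted p = 0.0027), against 0.06 ± 0.13 at 120 h. It was not called with the beta-actin ratio as a covariate, also together with the control level, or without the narrow arrays (value down to 0.27, adjusted p up to 0.41). The narrow vehicle arrays lay at 6.76 to 6.90 and the other vehicle arrays at 6.98 to 7.40.

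Slc25a13 encodes citrin, the aspartate-glutamate carrier of liver, which feeds aspartate to the urea cycle and the malate-aspartate shuttle. Its 24 h vehicle rats lay at 11.49, 11.63 and 11.66 and its ANIT rats at 11.24, 11.39 and 11.53, with 5 of 6 ANIT rats below all vehicle rats. The fall was small, by 0.22 on the log2 scale (SE 0.07, adjusted p = 0.025). It kept its call in 3 of 10 alternatives, lost it among others with the control level or the beta-actin ratio as a covariate and without the narrow arrays, and lost it without vehicle replicates 3, 4 or 6 or ANIT replicates 1, 3 or 6 (adjusted p up to 0.074). The second probe set of the gene gave -0.11 ± 0.10. Its paralog Slc25a12, the form of heart and brain, gave 0.02 ± 0.17 at 24 h and 0.23 ± 0.17 at 120 h.

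The remaining amino acid carriers were not called at either time. Slc25a15, the ornithine carrier of the urea cycle, gave -0.08 ± 0.19 at 24 h and -0.11 ± 0.19 at 120 h. For the probe set used, the 95% interval at 24 h ran from -0.49 to 0.32, so changes of that size could not be told from none. A second, dimmer probe set of Slc25a15 gave -0.26 ± 0.14 at 24 h and -0.34 ± 0.14 at 120 h, neither called. The glutamate carriers gave -0.12 ± 0.12 and -0.25 ± 0.12 for Slc25a22 and -0.07 ± 0.10 and 0.06 ± 0.10 for Slc25a18, whose probe set was dim. Slc25a44, a carrier of branched-chain amino acids, gave 0.11 ± 0.12 and -0.19 ± 0.12. Its second, dimmer probe set gave 0.11 ± 0.16 and -0.35 ± 0.16, neither called.

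**Figure D2:**
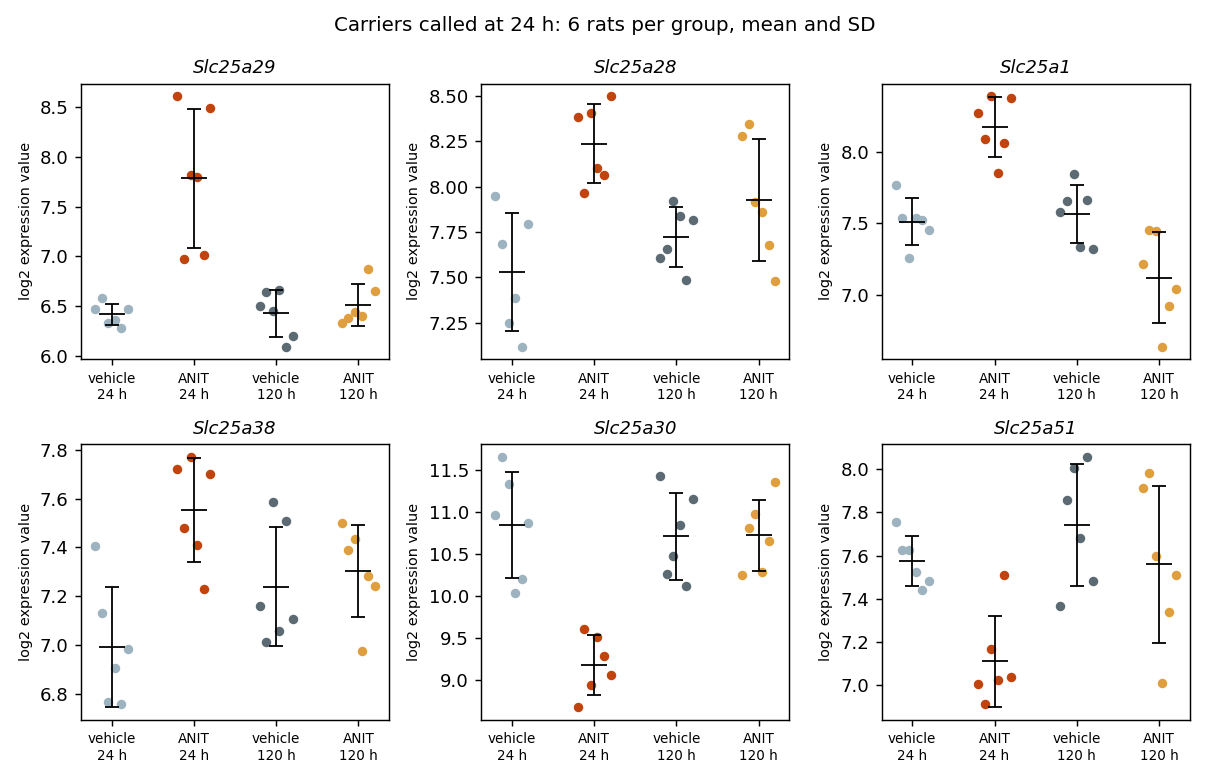
Log2 expression values of 6 carriers called at 24 h, 1 point per rat in each of the 4 groups, with the mean and SD in black; each panel has its own vertical axis. For Slc25a29, Slc25a28 and Slc25a1 the ANIT rats of 24 h lie above all vehicle rats of 24 h, for Slc25a30 they lie below them, and for Slc25a38 and Slc25a51 the groups overlap.

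Of the 2 iron carriers, 1 rose at 24 h and none was called at 120 h in limma (1 had an unadjusted p under 0.05). Slc25a28, the broadly expressed mitoferrin that brings iron into the matrix for haem and iron-sulfur clusters, lay at 7.12, 7.54 and 7.95 in vehicle rats and at 7.97, 8.24 and 8.50 in ANIT rats at 24 h. The groups did not overlap, though the lowest ANIT rat was only just above the highest vehicle rat. The rise was 0.71 ± 0.15 (1.63-fold, adjusted p = 0.0014). The narrow vehicle arrays lay at 7.12 to 7.39 and the others at 7.68 to 7.95. Without the narrow arrays of both times the rise was 0.43 and still called, while with the beta-actin ratio as a covariate it was 0.62 and not called (adjusted p = 0.11). At 120 h the difference was 0.21 ± 0.15. Slc25a37, the mitoferrin of red cell precursors, gave 0.26 ± 0.18 at 24 h and -0.37 ± 0.18 at 120 h, neither of them called, and the difference between the 2 mitoferrins was not tested.

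Slc25a30 showed the largest change of any carrier, and it was a fall. It is a relative of the uncoupling proteins and is known as the kidney mitochondrial carrier. Vehicle rats at 24 h lay at 10.03, 10.92 and 11.66 and ANIT rats at 8.67, 9.18 and 9.61. All 6 ANIT rats were below all vehicle rats. It fell by 1.66 on the log2 scale (SE 0.26, 3.16-fold lower, adjusted p = 4.8e-05) and was called under all 10 alternatives and with each of 24 arrays left out in turn. At 120 h vehicle rats lay at 10.12, 10.66 and 11.42 and ANIT rats at 10.25, 10.73 and 11.35, a difference of 0.01 ± 0.26. The effects at the 2 times differed by 1.67 ± 0.37 (adjusted p = 0.0032), which was not called with the beta-actin ratio as a covariate (adjusted p = 0.073). A second, dimmer probe set of the gene fell by 1.34 (SE 0.28, adjusted p = 0.0016) at 24 h. Its difference between times was 1.04 ± 0.39 and was not called (adjusted p = 0.099). The relatives Slc25a14 and Slc25a27, both found mainly in brain, gave 0.04 ± 0.17 and -0.17 ± 0.14 at 24 h, neither called, and 0.08 ± 0.17 and -0.12 ± 0.14 at 120 h. The probe sets of Slc25a27 were dim, and the second gave 0.05 ± 0.11 at 24 h and 0.08 ± 0.11 at 120 h.

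Of the 6 adenine nucleotide carriers measured, only Slc25a25 was called within a time, and at both times. It is a calcium-regulated carrier that exchanges ATP-Mg for phosphate and so sets the pool of adenine nucleotides in the matrix. At 24 h vehicle rats lay at 10.30, 11.05 and 11.47 and ANIT rats at 9.99, 10.09 and 10.88. The groups overlapped, with 4 of 6 ANIT rats close together at the bottom and 2 inside the vehicle range. The fall was by 0.63 (SE 0.19, 1.55-fold lower, adjusted p = 0.018). It was not called without vehicle replicate 2 (adjusted p = 0.054), nor under 4 of the 10 alternatives: the beta-actin ratio as a covariate, also together with the control level, without the narrow arrays, and with only the groups compared. Values over the 10 stayed between -0.71 and -0.56.

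At 120 h the Slc25a25 values of vehicle rats were tightly grouped, at 11.34, 11.41 and 11.50, while ANIT rats lay at 10.36, 10.63 and 10.97. All 6 ANIT rats were below all vehicle rats. The fall was by 0.74 (SE 0.19, 1.67-fold lower, adjusted p = 0.036). The call was lost with the beta-actin ratio as a covariate and without the narrow arrays, and with any 1 of 9 arrays of the 120 h groups left out (each vehicle replicate, and ANIT replicates 2, 3 and 6; adjusted p up to 0.096). The values with 1 array left out stayed between -0.80 and -0.68. The effects at the 2 times differed by -0.11 ± 0.26, with a 95% interval from -0.66 to 0.44.

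Slc25a23, another ATP-Mg carrier, had an effect that differed between times, while its calls within a time depended on the setting. At 24 h vehicle rats lay at 8.67, 9.15 and 9.53 and ANIT rats at 8.56, 8.72 and 9.01, a value of -0.39 ± 0.15 (adjusted p = 0.085). At 120 h vehicle rats lay at 8.28, 8.80 and 9.06 and ANIT rats at 8.87, 9.05 and 9.74, a value of 0.47 ± 0.15 (adjusted p = 0.13). All 6 ANIT rats were below the vehicle median at 24 h and all 6 were above it at 120 h. Neither value was called as reported, but each was called in 5 of 10 alternatives, with values from -0.81 to -0.26 at 24 h and from 0.20 to 0.71 at 120 h. Vehicle rats of 120 h minus those of 24 h gave -0.38 ± 0.15, not called (adjusted p = 0.35), and this enters the difference of the effects. The difference of the effects, 0.86 ± 0.22 (adjusted p = 0.0095), was called in all 10 alternatives and with every array left out. Of 2 dimmer probe sets of this gene, one gave a difference of 0.59 ± 0.15 and the other -0.07 ± 0.18, so the probe sets did not give 1 value.

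The other adenine nucleotide carriers were not called. Slc25a24, the third of the ATP-Mg carriers, gave 0.33 ± 0.15 at 24 h and 0.42 ± 0.15 at 120 h, and 5 of 6 ANIT rats lay above the vehicle median at each time. Slc25a4, an ADP/ATP translocase best known from heart and muscle, gave 0.14 ± 0.14 and 0.06 ± 0.14. Slc25a41 gave -0.14 ± 0.17 and 0.23 ± 0.17, and Slc25a31, the translocase of testis, gave -0.27 ± 0.21 and 0.12 ± 0.21. The probe sets of Slc25a41 and Slc25a31 were dim.

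**Figure D3:**
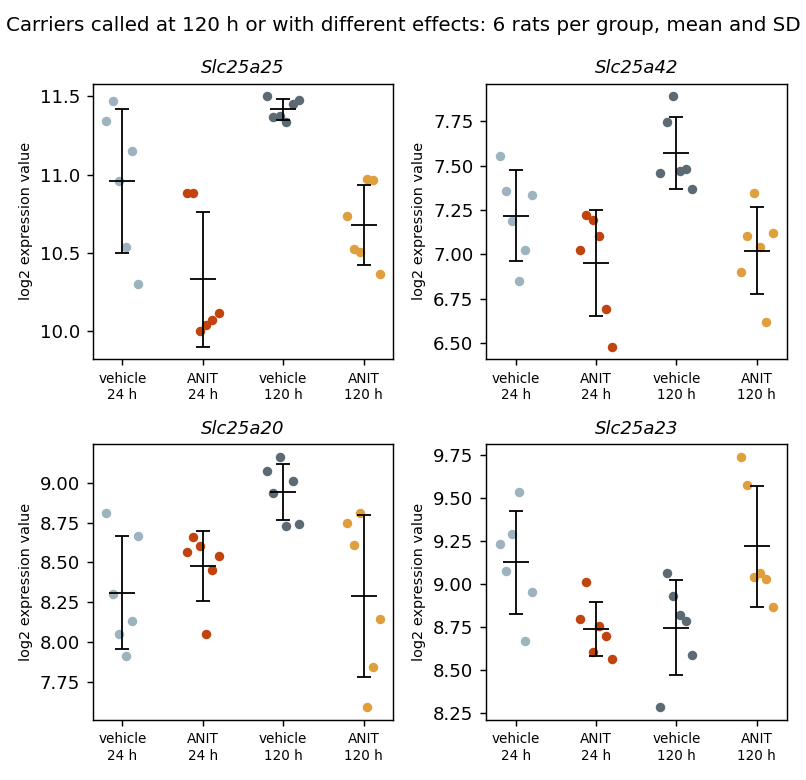
Log2 expression values of Slc25a25, Slc25a42, Slc25a20 and Slc25a23, 1 point per rat in each of the 4 groups, with the mean and SD in black; each panel has its own vertical axis. At 120 h all ANIT rats lie below all vehicle rats for Slc25a25 and Slc25a42, while the ANIT rats of 120 h split for Slc25a20, with 3 rats at 8.61 to 8.81 and 3 at 7.59 to 8.15.

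Among 8 carriers of cofactors and other nucleotides, 1 fell at 24 h and another fell at 120 h. Slc25a51, the carrier of NAD into the matrix, lay at 7.44, 7.57 and 7.75 in vehicle and at 6.91, 7.03 and 7.51 in ANIT rats at 24 h, with 5 of 6 ANIT rats below all vehicle rats. The fall was by 0.47 (SE 0.15, 1.38-fold lower, adjusted p = 0.026). A second probe set of the gene gave 0.01 ± 0.14. The mean of both probe sets gave -0.23 and was not called, nor was the fall with all arrays set to a common median or without vehicle replicate 3 or ANIT replicates 1, 2 or 6 (adjusted p up to 0.056 with 1 array left out). With both covariates the value was -0.89 and called, the other end of its range. Slc25a52, a near-identical relative of Slc25a51 whose probes may share its transcripts, gave -0.20 ± 0.11 at 24 h. The probe set of Slc25a52 was dim.

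Slc25a42, a carrier that brings coenzyme A into the matrix in exchange for adenine nucleotides, fell at 120 h. Vehicle rats lay at 7.37, 7.48 and 7.89 and ANIT rats at 6.62, 7.07 and 7.34, without overlap. The fall was by 0.55 (SE 0.14, 1.46-fold lower, adjusted p = 0.042), and at 24 h the value was -0.27 ± 0.14. The call was close to the threshold: it was kept in 5 of 10 alternatives and with 13 of 24 arrays left out (adjusted p up to 0.12). It was lost without vehicle 24 h replicates 2 or 6, vehicle 120 h replicates 1, 2, 3, 4 or 5, or ANIT 120 h replicates 1, 4, 5 or 6.

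The pyrimidine nucleotide carriers Slc25a33 and Slc25a36, which supply the matrix with nucleotides for mitochondrial DNA and RNA, gave values of opposite sign at 120 h. For Slc25a33, vehicle rats lay at 6.88, 7.14 and 7.59 and ANIT rats at 6.14, 6.71 and 6.94, a value of -0.50 ± 0.13 just outside the threshold (adjusted p = 0.0501). For Slc25a36, vehicle rats lay at 6.26, 6.79 and 7.15 and ANIT rats at 7.01, 7.26 and 7.52, a value of 0.49 ± 0.16 (adjusted p = 0.11). Under the 10 alternatives the 120 h value was called in 5 for Slc25a33 and in 3 for Slc25a36. At 24 h the values were 0.05 ± 0.13 and -0.23 ± 0.16. A second, dimmer probe set of Slc25a36 gave 0.06 ± 0.09 at 24 h and 0.12 ± 0.09 at 120 h. The effect on Slc25a36 differed between times by 0.72 ± 0.22 (adjusted p = 0.030), against 0.07 ± 0.13 on its second probe set. That call was lost with the mean of its probe sets (0.39, adjusted p = 0.19), with a common array median, with the beta-actin ratio as a covariate and without vehicle 24 h replicate 4, ANIT 24 h replicate 2 or vehicle 120 h replicate 1.

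The remaining cofactor carriers were not called. Slc25a39, the glutathione carrier, gave 0.00 ± 0.10 at 24 h, with a 95% interval from -0.20 to 0.20, and -0.12 ± 0.10 at 120 h. Its second, dimmer probe set gave -0.21 ± 0.10 and -0.22 ± 0.10, neither called, so the interval holds for the probe set used. Slc25a17, a carrier of coenzyme A, NAD and FAD in peroxisomes, gave 0.27 ± 0.13 and -0.20 ± 0.13. Slc25a16, linked to the uptake of coenzyme A, varied most among vehicle rats of 24 h, from 5.70 to 7.70, and gave 0.20 ± 0.24 and -0.57 ± 0.24. The outer membrane protein Slc25a46, which takes part in mitochondrial fission and lipid transfer, gave 0.02 ± 0.11 and -0.13 ± 0.11. Its second, dimmer probe set gave 0.09 ± 0.14 and -0.18 ± 0.14. Slc25a53, whose probe set was dim, gave -0.01 ± 0.15 and 0.04 ± 0.15.

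Slc25a20 exchanges acylcarnitines for carnitine and so admits long-chain fatty acids to beta-oxidation. Vehicle rats lay at 7.91, 8.22 and 8.81 and ANIT rats at 8.05, 8.55 and 8.66 at 24 h, a value of 0.17 ± 0.19 that turned negative under 5 alternatives (down to -0.23) and was called under none. At 120 h vehicle rats lay at 8.73, 8.98 and 9.16 and ANIT rats at 7.59, 8.38 and 8.81, a value of -0.65 ± 0.19 (adjusted p = 0.067). The effects differed by -0.82 ± 0.26 (adjusted p = 0.036). Vehicle rats of 120 h minus those of 24 h gave 0.63 ± 0.19, not called (adjusted p = 0.23), and this enters the difference of the effects. In ANIT rats of 120 h the 3 narrow arrays lay at 7.59 to 8.15 and the 3 others at 8.61 to 8.81, and in vehicle rats of 24 h at 7.91 to 8.13 and 8.30 to 8.81. Without the 6 narrow arrays the difference was -0.11 (adjusted p = 0.86). It was also not called with quantile normalization, or with the control level, the beta-actin ratio or both as covariates, and it kept its call with 10 of 24 arrays left out singly. The value at 120 h was called in 4 of 10 alternatives and ran from -0.69 to -0.22. Slc25a45, its neighbour in the family tree, gave 0.21 ± 0.15 and -0.09 ± 0.15.

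At 120 h, 2 of the 37 carriers (5.41%) were called, both lower, Slc25a25 and Slc25a42, beside a background of 2.02% of all genes in either direction, 1.51% lower and 0.513% higher. The same 2 were the carriers whose groups did not overlap, which 2.14% of all genes met. The median change over the 37 was -0.07, against -0.01 over all genes. Of all 13438 genes, 272 were called as reported, 501 with quantile normalization and 674 with the control level as a covariate. With the beta-actin ratio 191 were called, and without the narrow arrays 194. The carrier count depended on the setting as well. It was 7 with quantile normalization (3 higher, 4 lower) and 8 with the control level as a covariate (3 higher, 5 lower). It was 1 with the beta-actin ratio instead (higher) and 2 without the narrow arrays (both higher). It was 0 without vehicle 120 h replicates 2, 3, 4 or 5 or ANIT 120 h replicate 6, 1 without vehicle 24 h replicates 2 or 6, vehicle 120 h replicates 1 or 6 or ANIT 120 h replicates 4 or 5, 3 without ANIT 120 h replicate 1, and 4 without vehicle 24 h replicate 1 or ANIT 120 h replicates 2 or 3.

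The effect of ANIT differed between 120 h and 24 h for 6 of the 37 carriers (16.2%), beside a background of 14.3% of all genes. For Slc25a30, Slc25a23 and Slc25a36 the effect was higher at 120 h (background 3.33%), and for Slc25a29, Slc25a1 and Slc25a20 it was lower (background 11%). The median difference was -0.11 over the 37 and -0.02 over all genes. Among all genes, 1924 were called as reported, 438 with the beta-actin ratio as a covariate and 2201 with quantile normalization. The carrier count was 1 with the beta-actin ratio as a covariate, and 8 with quantile normalization (6 higher, 2 lower). With 1 array left out it was 4 to 13, and it was 13 without vehicle 24 h replicate 1. The 24 h and 120 h effects rest on separate rats.

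Vehicle rats of 120 h and 24 h did not differ in any of the 37 carriers in limma after adjustment, beside 0.00744% of all genes, 1 gene. At an unadjusted p under 0.05 there were 6. The widest values were 0.63 ± 0.19 for Slc25a20, 0.50 ± 0.13 for Slc25a33 and 0.46 ± 0.19 for Slc25a25, all higher at 120 h (the smallest adjusted p among the 37 was 0.18). The lowest value was -0.38 ± 0.15 for Slc25a23. Comparisons of ANIT with vehicle at 120 h and of both vehicle groups share the vehicle rats of 120 h.

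**Figure D4:**
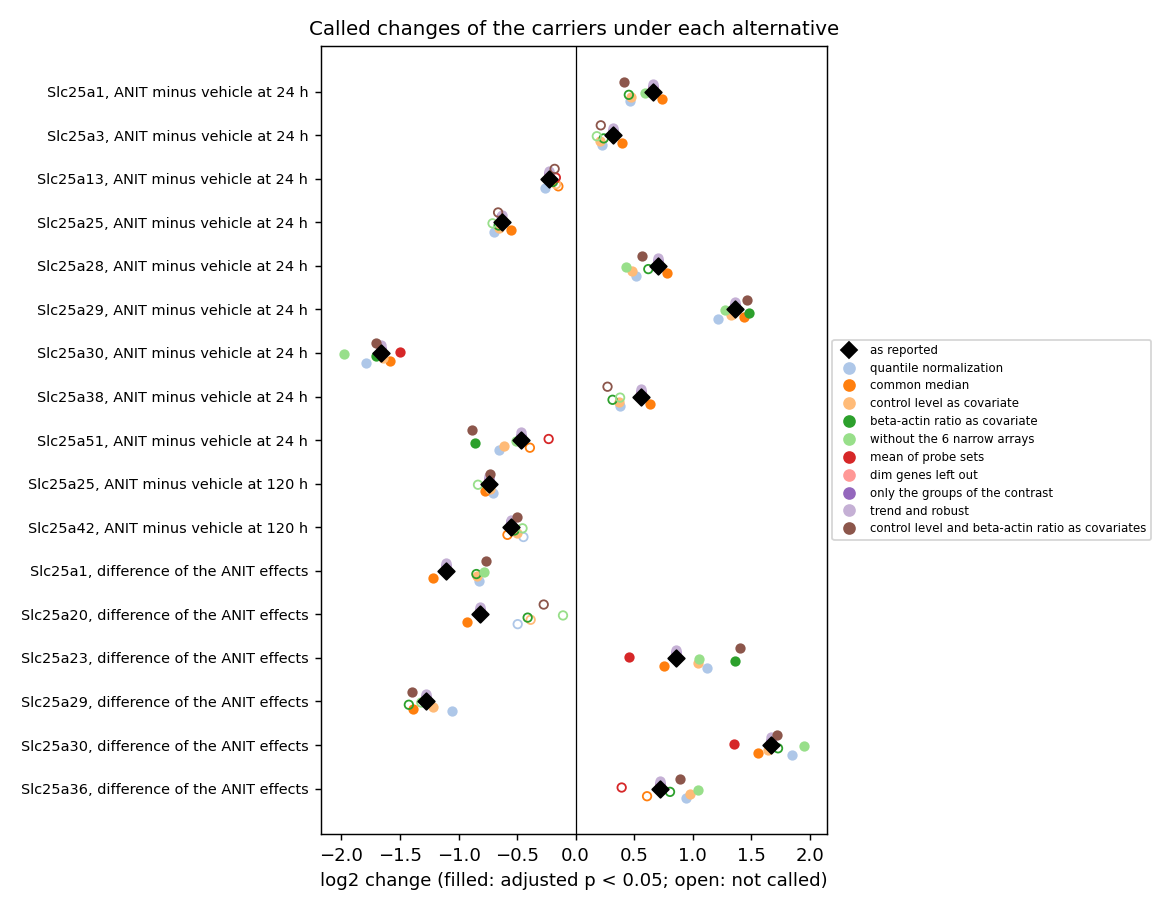
Log2 change of the 17 called changes of carriers (rows) as reported (black diamonds) and under 10 alternatives (coloured points), filled where the adjusted p was under 0.05. No point lies on the other side of 0 from its diamond, and 3 changes are filled throughout: Slc25a29 and Slc25a30 at 24 h and the difference for Slc25a23.

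Markers of liver cell types were read beside these results. Of all genes, 18.2% were called at 24 h (12.9% higher, 5.31% lower) and 2.02% at 120 h. With 5 to 8 markers per list, single calls shift the share of a list widely. The 7 hepatocyte markers averaged between 11.78 and 12.26 on every array. At 24 h Hnf4a and Tat were called higher, while the other 5 had values from -0.17 to -0.02, none called. At 120 h none of the 7 was called. Of 6 cholangiocyte markers none was called at 24 h and 2 rose at 120 h, where their mean level was 4.90 to 5.26 in ANIT and 4.64 to 4.87 in vehicle rats. Of 6 neutrophil markers 2 rose at 24 h, S100a8 by 1.82 and S100a9 by 0.87, while the other 4 had values from -0.07 to 0.03. The mean level of the 6 was 5.005 to 5.28 against 4.45 to 5.26. Of 6 lymphocyte and NK markers 2 fell at 24 h (mean level 4.55 to 4.76 against 4.75 to 5.04). Of 7 macrophage markers 2 rose at 24 h (8.67 to 8.98 against 8.54 to 8.79) and 1 at 120 h (8.73 to 9.22 against 8.49 to 8.93). Of 8 stellate cell and fibroblast markers 1 fell at 24 h, of 5 endothelial markers 1 rose and 2 fell, of 6 markers of proliferating cells 1 fell, and none of these was called at 120 h, although 5 of the stellate cell markers had an unadjusted p under 0.05 there. At 24 h the stellate cell list had 12.5% called and the proliferation list 16.7%, near the share of all genes in either direction. No erythroid or skeletal muscle marker, 5 of each, was called at either time. On arrays a dim probe set does not read 0, so no marker can be given as absent. The part of these cell types in the carrier values was not tested.

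Partner genes of the carriers were counted in lists drawn up by pathway, to be read against the 18.2% of all genes called at 24 h and the 2.02% called at 120 h. Like the markers, they were read in the reported fit only and not under the alternatives. With the beta-actin ratio as a covariate, calls over all genes at 24 h fell from 2451 to 907. Of 12 genes of citrate export and fatty acid synthesis, 7 rose and 1 fell at 24 h, with a median of 0.62, while Slc25a1 rose by 0.66. Acly, which cleaves the exported citrate to acetyl-CoA, rose by 0.83 ± 0.12 (adjusted p = 1.4e-05), and Acaca and Fasn, which build fatty acids from it, rose by 1.10 ± 0.13 and 2.76 ± 0.20. At 120 h the only call in this list was Aco1, cytosolic aconitase, which fell by 0.45. Mpc1, a subunit of the pyruvate carrier, which belongs to another family, fell by 0.44 at 24 h (SE 0.09, adjusted p = 0.0013). It was 1 of 2 calls among 14 other transport genes of both mitochondrial membranes, 14.3% against 18.2% of all genes. The second was Vdac3, an outer membrane channel, which rose by 0.33 ± 0.09. In the matrix, Pc, which makes oxaloacetate from pyruvate, fell by 0.61 at 24 h, and Idh3g and Dld rose, 2 higher and 1 lower of 16 citric acid cycle genes, a share near that of all genes (18.8% against 18.2%). At 120 h only Idh2 of that list was called, by 0.70 ± 0.14.

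Calls among the carnitine and fatty acid oxidation partners were all lower at both times, while Slc25a20 itself was not called within either. Of 12 genes of the carnitine route 7 fell at 24 h and 5 at 120 h, and none rose, with medians of -0.40 and -0.38. Cpt1a, the enzyme that makes long-chain acylcarnitines, fell by 1.06 (SE 0.11) at 24 h and by 0.43 at 120 h. Slc22a5, the plasma membrane carnitine transporter, fell by 1.13 and 0.79, and Crat, carnitine acetyltransferase, by 0.95 and 0.62. Of 7 genes of a PPAR-alpha responsive set 5 fell at 24 h and 3 at 120 h, among them Ehhadh, a peroxisomal oxidation enzyme (-1.30 and -0.83), and Plin2, a lipid droplet protein (-0.44 and -0.34). The other 2 had positive values at 24 h, neither called, among them Fgf21 (0.80 ± 0.30, adjusted p = 0.068). At 120 h Fgf21 fell by 1.52 (SE 0.30, adjusted p = 0.0076).

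Nitrogen pathways around the amino acid carriers gave calls at 24 h and none at 120 h in limma, where only 2.02% of all genes were called and 2 urea cycle and 2 one-carbon genes had an unadjusted p under 0.05. Of 7 urea cycle partners 2 rose and 3 fell at 24 h. Otc, which joins the ornithine carried by Slc25a15 to carbamoyl phosphate, fell by 0.46 (SE 0.13, adjusted p = 0.012), Asl by 0.65 and Oat, ornithine aminotransferase, by 0.79, while Arg1 rose by 0.36. None of 8 malate-aspartate shuttle partners of Slc25a13 and Slc25a11 was called at 24 h, where 3 had an unadjusted p under 0.05. Got1, the cytosolic aspartate aminotransferase, gave -0.60 ± 0.24 (adjusted p = 0.090). Of 11 one-carbon and glycine genes 1 rose and 1 fell, a share of 18.2% that equals the background of all genes: Shmt2, which makes glycine in the matrix, rose by 0.82 ± 0.16, and Shmt1, its cytosolic form, fell by 0.40 (SE 0.13).

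Of 12 haem and iron-sulfur partners of Slc25a38 and Slc25a28, 2 rose and 1 fell at 24 h and none was called at 120 h in limma, where 4 had an unadjusted p under 0.05. Tfrc, the transferrin receptor, rose by 0.67 ± 0.13 (adjusted p = 0.00073) and Cpox by 0.28 ± 0.09, while Uros fell by 0.30. Alas1, the enzyme that uses the glycine in liver, gave -0.20 ± 0.19 and was not called. Of 11 glutathione, NAD and coenzyme A partners 1 rose and 2 fell at 24 h: Nampt, the rate-limiting enzyme of NAD salvage, rose by 1.12 ± 0.22, Pank1, which starts coenzyme A synthesis, fell by 0.68 (SE 0.09), and Gclc, the first enzyme of glutathione synthesis, fell by 0.49 (SE 0.12). At 120 h the only call was Gss, glutathione synthetase, which fell by 1.02 (SE 0.20).

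Of 10 genes of the carrier import path 3 rose at 24 h, beside 12.9% of all genes called higher: Tomm20 by 0.44 ± 0.12, Tomm70, the receptor that recognises carrier precursors, by 0.33 ± 0.09 and Timm29 by 0.25 ± 0.07, and none was called at 120 h in limma, where 2 had an unadjusted p under 0.05. Of 12 regulators of mitochondrial biogenesis, Pprc1 rose by 0.93 ± 0.19 and Polg, the mitochondrial DNA polymerase, fell by 0.49 (SE 0.10). None of 5 further relatives outside the Slc25 symbols (Ucp1, Ucp2, Ucp3, Mtch1 and Mtch2) was called at either time, and none had an unadjusted p under 0.05. Ucp2 gave 0.04 ± 0.15 at 24 h and 0.03 ± 0.15 at 120 h.

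**Figure D5:**
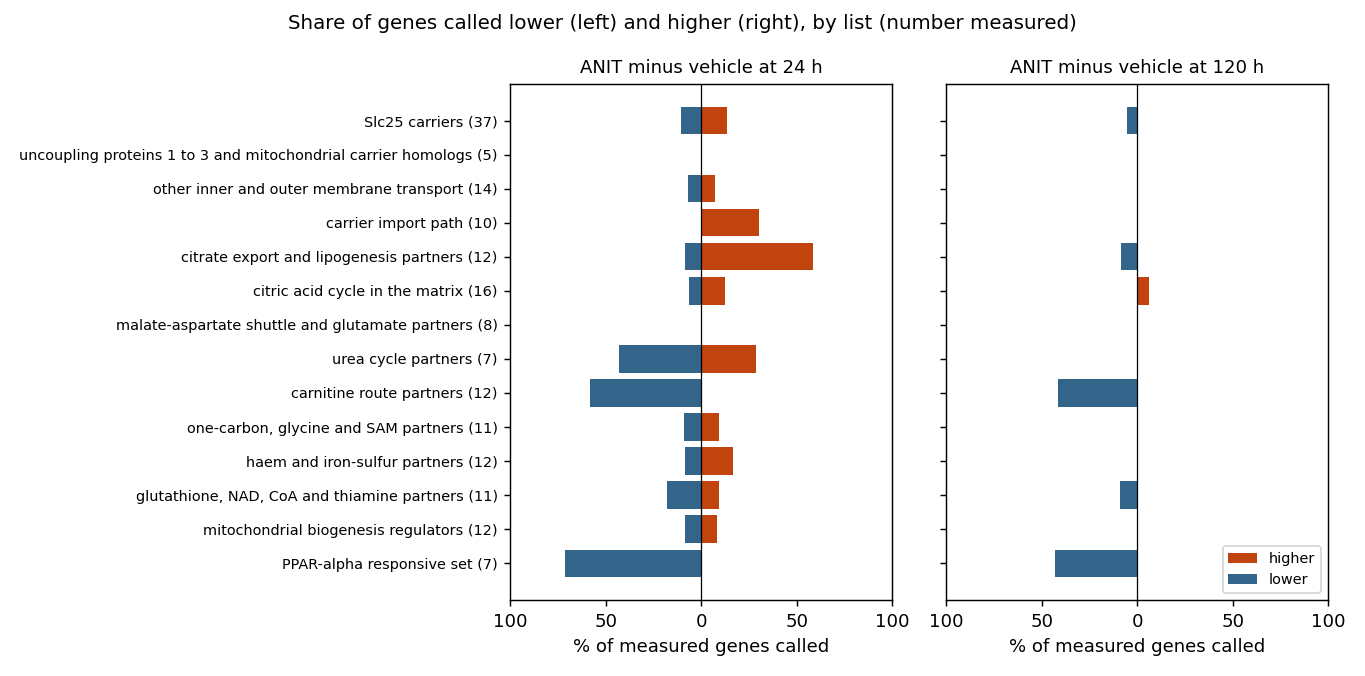
Share of the measured genes of each list called lower (bars to the left) and higher (bars to the right) at 24 h and 120 h, with the number measured in brackets. The carriers themselves have 5 higher and 4 lower of 37 at 24 h; the citrate and lipogenesis list leans to the right with 7 of 12 higher, and the carnitine list to the left with 7 of 12 lower at 24 h and 5 of 12 at 120 h.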

How the data were processed

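Liver RNA of 24 rats, each labelled as a separate rat, was measured on 24 one-colour arrays of biotin-labelled cDNA. The deposited table holds log2 values for 31139 probe sets, from 2.34 to 13.5, and the submitters' processing notes name RMA and Partek, with versions and settings not given in the sources used here. Array means lay between 5.86 and 5.89 and medians between 5.34 and 5.54. No further normalization was applied.

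Probe sets were named through the platform annotation, updated through Entrez identifiers: 19068 probe sets named 1 gene, 573 several and 11498 no listed gene. Probe sets naming several genes were left out, among them 1 that held carriers. The 37 carriers had 48 probe sets, and 10 carriers had more than 1.

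Groups came from the sample labels. A model of 4 group means was fitted to all 13438 genes with limma 3.58.1 (lmFit, eBayes) in R 4.3.3, with Benjamini-Hochberg adjustment and calls at an adjusted p under 0.05. The fit was tested on simulated data. Folds are antilogs of log2 differences. Array-level values were compared by exact permutation. Other probe sets were fitted, with their own p adjustment, together with all 31139 probe sets. Figures used Python 3.11.15 and matplotlib 3.10.9.

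Alternatives were quantile normalization, a common median, the hybridisation control level or the 3′ to 5′ beta-actin ratio as a covariate, leaving out the 6 arrays of smallest SD, the mean of a gene's probe sets, leaving out dim genes, fitting only the groups compared, limma's trend and robust options and, added after seeing the data, both covariates together and each array left out. Carriers called with a change of at least 0.3, or among the 3 smallest p of a comparison, were given per group. Of each partner list the 3 smallest p at 24 h, the smallest at 120 h and 7 set genes could be named. The members and lists were chosen with earlier results of these data known.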

Additional observations from a re-analysis of the deposited data

Results flagged for a closer look

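Effects of ANIT that differed between 120 h and 24 h by limma's test of the difference were found for 6 carriers. The difference (120 h minus 24 h, log2) was 1.67 for Slc25a30, 0.86 for Slc25a23, 0.72 for Slc25a36, -0.82 for Slc25a20, -1.11 for Slc25a1 and -1.28 for Slc25a29.

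ANIT replicate 4 at 24 h had a Slc25a20 value of 8.05, with the nearest rat of its group at 8.45, a gap of 0.66 of the group's range. It was the 1 value flagged in 56 groups of 6 rats examined over 14 carriers. Chance flags about 1 in 20 groups, so 1 in 56 is no more than chance gives.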

How the results depend on the processing

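All 17 called changes of carriers kept their direction under the 10 alternatives, and 3 of them kept their call in every one. With each of 24 arrays left out in turn, 10 kept their call throughout. Carriers called at 24 h (9 as reported) were 4 with the beta-actin ratio as a covariate, 5 without the narrow arrays and 7 to 11 with 1 array left out (11 without vehicle 24 h replicate 1). Calls over all genes at 24 h were 2451 as reported, 907 with the beta-actin ratio and 1554 without the narrow arrays. The median change at 24 h was -0.12 with the control level as a covariate, -0.11 without the narrow arrays, -0.10 with both covariates, and -0.04 to 0.08 with 1 array left out. Carriers called at 120 h (2 as reported) were 7 with quantile normalization, 8 with the control level, 9 with both covariates and 4 without dim genes (29 carriers left). They were 1 with a common array median, 1 under the beta-actin covariate, 1 with only the groups compared, and 0 to 4 with 1 array left out. Calls over all genes at 120 h were 272 as reported, 501 with quantile normalization, 674 with the control level and 627 with both covariates. They were 334 without dim genes, where fewer genes were tested. A common array median gave 143, the beta-actin covariate 191 and only the groups compared 176. The median at 120 h ran from -0.09 to -0.01 with 1 array left out and from -0.12 (without dim genes) to -0.01 under the other alternatives. Among all genes, 1924 differed between times as reported and 438 with the beta-actin ratio as a covariate. Differences of carriers between times (6 as reported) were 1 with the beta-actin ratio and 4 to 13 with 1 array left out. Their median was 0.028 with quantile normalization, 0.0293 without the narrow arrays, 0.0181 with both covariates, and -0.18 to -0.07 with 1 array left out. With 1 array left out, the vehicle comparison had 0 to 1 call (1 without vehicle 24 h replicate 1) and a median of 0.06 to 0.16, and under the other alternatives its median ran from -0.0013 (without the narrow arrays) to 0.15. The cause of these shifts was not tested. No paired analysis was possible because the labels give no replicate numbers shared between groups. With 6 arrays per group, precision is limited. Of the 37 carriers, 8 were among the dim genes, below the median level of all genes in every group. They were Slc25a18, Slc25a21, Slc25a27, Slc25a31, Slc25a35, Slc25a41, Slc25a52 and Slc25a53. For these, signal over background limits what can be read, and a value near 0 does not show that nothing changed.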
